A study of Mus musculus with 4 samples.

Results

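The interferon-gamma GTPases and their signalling genes were examined in RNA from mouse abdominal aortic grafts. The set held 32 genes chosen by symbol, with earlier results of these data known. It covered the interferon-gamma receptor chains, their Janus kinases, induced transcription factors and an inhibitor, the interferon-inducible GTPases, and further induced effectors. Each of the 32 matched 1 of the 54752 gene rows of the count table, and all 32 were among the 16498 genes tested. The groups were ISO and ALLO grafts taken 4 weeks after aorta transplantation, each with 2 libraries, so n = 2 for every group value. ALLO grafts are allografts in chronic rejection, per the series title, and the labels do not spell out ISO. Neither donor nor recipient strain, age, sex or treatment is given in the sources used here. Any strain difference between ISO and ALLO therefore cannot be told apart from the group difference. Nothing in those sources ties a library to its own animal. The p-values thus weigh the group difference against the spread between libraries of a group, which may be partly technical.

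Interferon-gamma is the cytokine that T helper 1 cells, CD8 T cells and NK cells release on meeting antigen or target cells. It binds a receptor of IFNGR1 and IFNGR2 chains, which activates the kinases JAK1 and JAK2. Target genes often carry gamma-activated sites (GAS) or interferon-stimulated response elements (ISRE), the latter bound by induced factors such as IRF1. Among the most abundant products in mice are immunity-related GTPases (IRG) and guanylate-binding proteins (GBP), which attack the vacuoles of intracellular microbes. In a rejecting vessel, interferon-gamma acts on graft endothelium and smooth muscle as well as on infiltrating macrophages.

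The libraries held 17532344 to 20194854 counts. Levels are given as CPM, the usual scaling of a gene's count to the library total, here a total adjusted for composition by TMM factors. Xist had 10647 counts in ISO replicate 1 and no more than 8 elsewhere, while the Y-linked Ddx3y had 0 there and 2105 or more in the other 3 libraries, so the sex of the tissue differed within ISO. The 6 smooth muscle markers that define aortic media summed to 28260 and 28340 CPM in ISO and to 1157 and 2402 in ALLO. All 6 fell in ALLO. The 8 T cell markers summed to 9.65 and 1.21 CPM in ISO and to 359 and 270 in ALLO, and the 8 macrophage markers to 877, 361, 7997 and 6247 in the same order of libraries. Of these lists 8 of 8 T cell and 6 of 8 macrophage markers rose in ALLO, as did 6 of 6 NK cell markers (sums of 2.34, 5.13, 120.3 and 101.5 CPM), and none of the markers was at 0 in both ISO libraries. Of the T cell markers 7 and of the NK cell markers 5 reached the low-count filter only through ALLO, so a rise was built into their selection, which was so for none of the macrophage markers. Their part in the changes given here was not tested. In whole tissue, more cells of a type and more RNA per cell cannot be told apart.

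RefSeq promoter windows, from 250 bases before a transcription start to 50 after it (build GRCm38.p6), were used for 21 of the 32 genes. No window was matched for Batf2, Iigp1, Gbp4, Gbp6, Gbp8, Gbp9, Gbp10, Gbp11, Gvin1, Ido1 and Nos2. The GAS core TTCNNNGAA, which reads the same on both strands, was in the windows of 9 of the 21 genes, against 9.55% of all 27025 genes with a window. The ISRE core, GAAA and GAAA with any 2 bases between them, searched on both strands, was in those of 11 of the 21, against 3.99% of all genes. In 6 of the 21 genes both were present, and in 7 neither was: Ifngr1, Ifngr2, Jak1, Jak2, Ifi47, Acod1 and Ubd. In none of the 24 windows of the 21 genes did matches to the GAS and ISRE cores overlap. The matches are descriptions of letters and were not tested for binding.

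Windows of 120 bases, 110 before and 10 after the start, are shown for some genes of the set, with matches to either core in capitals. Irf1 (chr11:53769904-53770023, plus strand) carried a GAS core and Socs1 (chr16:10785527-10785646, minus strand) a pair of overlapping ISRE cores. Serpina3g (chr12:104236037-104236156, plus strand) carried a GAS core. The receptor gene Ifngr1 (chr10:19591839-19591958, plus strand) had neither.
Irf1: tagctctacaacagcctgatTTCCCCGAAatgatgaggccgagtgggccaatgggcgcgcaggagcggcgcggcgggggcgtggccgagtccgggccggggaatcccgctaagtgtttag
Socs1: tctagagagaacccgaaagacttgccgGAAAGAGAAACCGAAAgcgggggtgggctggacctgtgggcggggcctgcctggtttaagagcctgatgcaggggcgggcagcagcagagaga
Serpina3g: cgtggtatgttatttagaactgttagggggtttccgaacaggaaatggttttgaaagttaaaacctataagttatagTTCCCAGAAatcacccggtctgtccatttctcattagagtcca
Ifngr1: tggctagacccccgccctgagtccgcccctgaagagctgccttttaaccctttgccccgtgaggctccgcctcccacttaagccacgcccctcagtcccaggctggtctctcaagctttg

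IRG genes are shown next because 4 of them shared an arrangement. Ifi47, an IRG gene whose window had neither core, is not shown. In Irgm2 (chr11:58214867-58214986, plus strand), Igtp (chr11:58199446-58199565, plus strand), Tgtp1 (chr11:48992237-48992356, minus strand) and Tgtp2 (chr11:49064203-49064322, minus strand) the GAS core lay 2 bases before the ISRE core. That composite, the GAS core, any 2 bases and the ISRE core, was searched after it had been seen in these windows. It was in 5 of 32851 windows of all genes (0.0152%), those of the 4 genes and of Gm12185, which shares transcript sequence with Tgtp1. Irgm1 (chr11:48871411-48871530, minus strand) had overlapping ISRE cores and no GAS core.
Irgm1: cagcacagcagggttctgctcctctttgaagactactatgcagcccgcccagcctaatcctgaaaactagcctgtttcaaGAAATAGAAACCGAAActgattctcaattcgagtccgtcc
Irgm2: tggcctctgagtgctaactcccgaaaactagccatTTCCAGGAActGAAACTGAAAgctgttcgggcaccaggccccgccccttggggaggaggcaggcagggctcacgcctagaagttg
Igtp: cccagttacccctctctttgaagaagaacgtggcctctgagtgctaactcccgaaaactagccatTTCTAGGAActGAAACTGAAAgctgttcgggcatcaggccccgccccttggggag
Tgtp1: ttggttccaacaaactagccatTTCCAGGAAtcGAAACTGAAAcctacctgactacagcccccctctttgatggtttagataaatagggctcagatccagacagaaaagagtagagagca
Tgtp2: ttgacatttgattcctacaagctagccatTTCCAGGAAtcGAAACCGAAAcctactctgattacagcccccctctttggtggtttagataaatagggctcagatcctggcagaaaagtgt

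In the GBP genes of chromosome 3 every ISRE core was read on the opposite strand (TTTC and TTTC with 2 bases between them). Gbp2 (chr3:142620553-142620672, plus strand) had this core alone, and Gbp7 (chr3:142530226-142530345, plus strand) had it after a pair of GAS cores.
Gbp2: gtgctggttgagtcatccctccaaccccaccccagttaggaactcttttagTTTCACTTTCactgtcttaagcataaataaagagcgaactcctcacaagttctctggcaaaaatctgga
Gbp7: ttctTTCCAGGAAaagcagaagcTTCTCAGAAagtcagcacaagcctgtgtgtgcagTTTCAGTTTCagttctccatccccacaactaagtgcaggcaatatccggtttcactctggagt

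**Figure D1:**
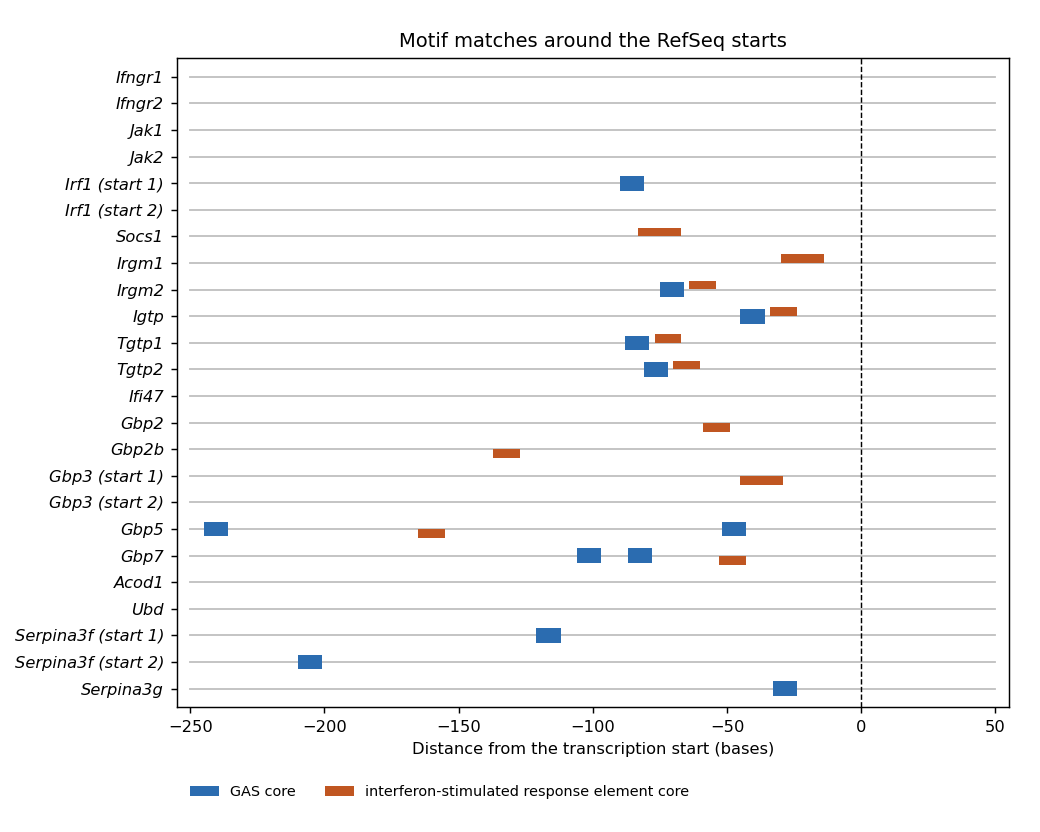
Positions of GAS and ISRE core matches in 24 promoter windows of 21 genes, by distance from the RefSeq start in bases. Orange marks above the line are on the gene's strand and those below it on the opposite strand; every ISRE mark lies above the line in Socs1 and the IRG genes and below it in the GBP genes.

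Most of the set was higher in ALLO grafts. Because the set was chosen with earlier results of these data known, its shares beside those of all genes are descriptions and no test of the set. By edgeR's quasi-likelihood test with Benjamini-Hochberg adjustment over all genes, 24 of the 32 genes rose and none fell, where 18.4% of all 16498 genes rose and 14.8% fell (33.1% called in all). No gene of the set had a negative log2 change, and none fell with limma-voom or DESeq2. With library size alone as the scaling 3546 of all genes rose and 1867 fell, against 3032 and 2437, and 26 of the 32 rose. The 8 that did not pass were Ifngr2, Tgtp1, Gbp3, Gbp4, Gbp7, Gbp10, Ido1 and Acod1. The median log2 change of the set was 2.36, beside 0.03 for all genes tested. In 31 of 32 genes both ALLO libraries lay above both ISO libraries, as they did in 37.1% of all genes (35.4% lay apart the other way), and Ido1 was the exception. Gbp2b, Gbp11, Acod1, Ubd and Serpina3f reached the low-count filter only through the ALLO libraries, so a difference upward in them was built into the filter. Of the other 27 genes 20 rose.

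**Figure D2:**
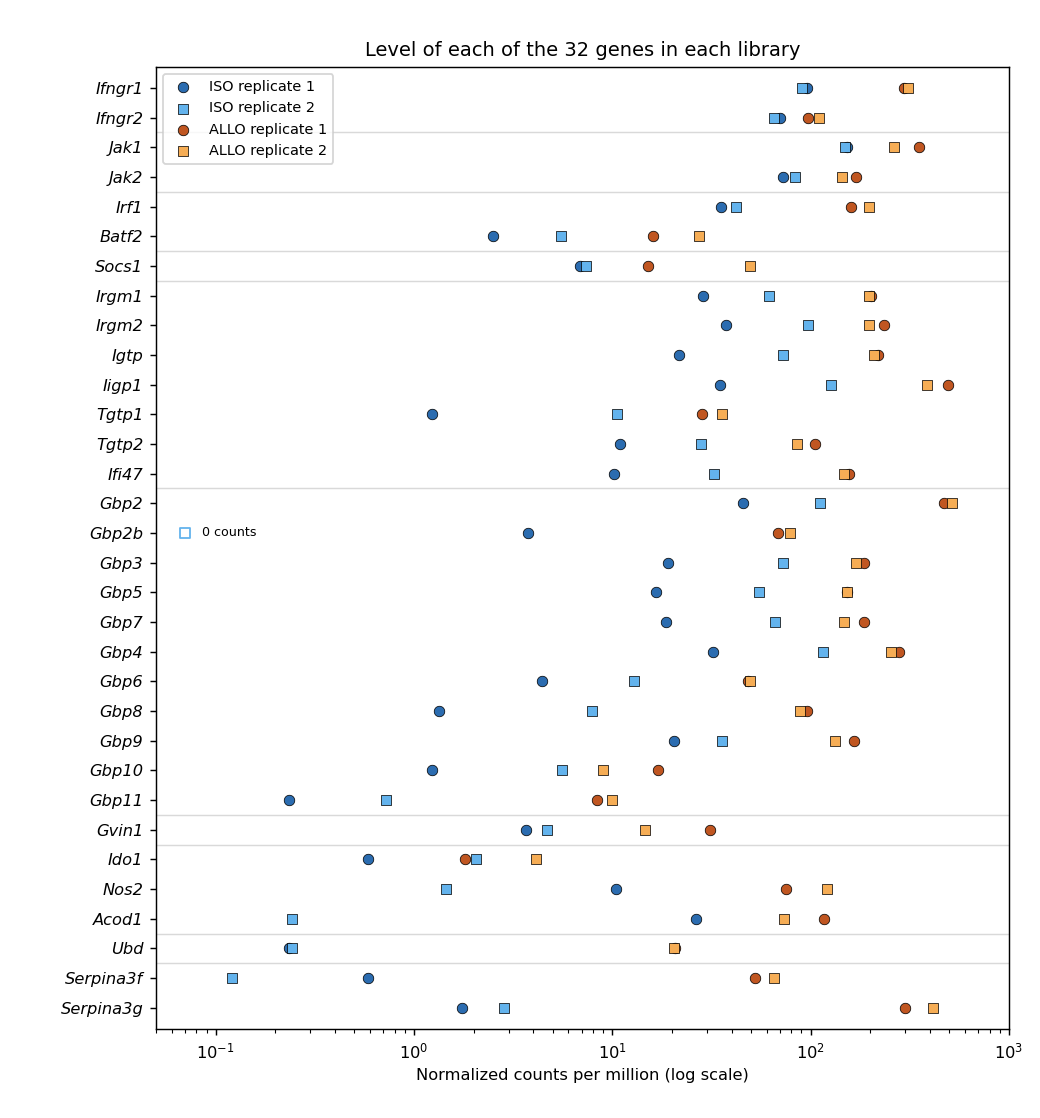
Level of each gene in CPM in each of the 4 libraries, on a log axis, with blue for ISO and orange for ALLO; the open square marks Gbp2b at 0 counts in ISO replicate 2. ALLO symbols lie to the right of both ISO symbols in every row except Ido1, and blue squares (ISO replicate 2) lie to the right of blue circles in all IRG and GBP rows except Gbp2b.

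Among the receptor chains, Ifngr1, which encodes the ligand-binding chain (ENSMUSG00000020009.13, chromosome 10, 19591949 to 19610229, mm10), was at 96.4 and 90.1 CPM in ISO and at 295 and 308 in ALLO. The libraries of a group were close and the groups far apart, and Ifngr1 rose 3.24-fold (log2 change 1.69 ± 0.20 SE, edgeR adjusted p = 0.00537). Ifngr2, the signalling chain (chromosome 16, 91547072 to 91565623), was at 70.3 and 65.1 CPM in ISO and at 96.6 and 110 in ALLO. Its difference of 0.61 ± 0.18 on the log2 scale missed the threshold (edgeR adjusted p = 0.0553), although the groups did not overlap. It passed under 6 other settings with all 4 libraries, at 0.60 to 0.80.

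Both kinases rose by about the same factor. Jak1, which docks on IFNGR1 (chromosome 4, 101152367 to 101265282), was at 152 and 149 CPM in ISO and at 353 and 264 in ALLO (2.04-fold, edgeR adjusted p = 0.0268). Jak2, which docks on IFNGR2 (chromosome 19, 29251828 to 29313080), was at 72.6 and 83.2 CPM in ISO and at 170 and 145 in ALLO (2.02-fold, edgeR adjusted p = 0.0189). Both calls were lost without ISO replicate 1 (edgeR adjusted p = 0.150 for Jak1 and 0.149 for Jak2) or ISO replicate 2 (0.173 and 0.0967), at folds of 1.87 to 2.13.

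The induced regulators changed more than the receptor and kinases did in size, a difference that was not tested. Irf1, the transcription factor that relays the signal to ISRE-bearing genes (chromosome 11, 53770014 to 53778374), was at 35.3 and 42.2 CPM in ISO and at 161 and 198 in ALLO, 4.63-fold higher (2.21 ± 0.22, edgeR adjusted p = 0.00444). Batf2, an AP-1 family factor of activated macrophages (chromosome 19, 6140983 to 6172476), was at 2.51 and 5.49 CPM in ISO and at 16.1 and 27.5 in ALLO, 5.44-fold higher (edgeR adjusted p = 0.0213). Its fold was 8.53 without ISO replicate 2, and its call was lost without ALLO replicate 2 (edgeR adjusted p = 0.0690). Socs1, which binds and inhibits the receptor-bound JAK kinases (chromosome 16, 10782240 to 10785536), was at 6.90 and 7.36 CPM in ISO and at 15.2 and 49.2 in ALLO.

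The ALLO libraries of Socs1 thus differed 3.25-fold from each other, the widest gap of any of the 32 genes in ALLO. It passed at 4.51-fold (edgeR adjusted p = 0.0432), at 7.06-fold without ALLO replicate 1 and at 2.13-fold without ALLO replicate 2, where the call was lost (edgeR adjusted p = 0.0679). The call was also lost without ISO replicate 1 (0.0541), without ISO replicate 2 (0.0529), with limma-voom (0.0906) and when the filter asked for a mean of 10 counts (0.0514).

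The IRG family has regulatory members, Irgm1, Irgm2 and Igtp, which sit on host membranes and hold the others inactive, and effector members, which load onto parasite vacuoles. Irgm1 (ENSMUSG00000046879.7, chromosome 11, 48861968 to 48871683) was at 28.7 and 61.8 CPM in ISO and at 201 and 198 in ALLO, 4.41-fold higher (2.14 ± 0.40, edgeR adjusted p = 0.0161). Irgm2 was at 37.7 and 97.3 CPM in ISO and at 234 and 198 in ALLO. Igtp, also called Irgm3, which overlaps Irgm2 (both within 58199556 to 58222782 of chromosome 11), was at 21.8 and 72.5 CPM in ISO and at 218 and 209 in ALLO. Irgm2 rose 3.20-fold (edgeR adjusted p = 0.0479), a call lost with upper-quartile scaling (0.05004) and with the filter on mean counts (0.0581), and Igtp rose 4.54-fold (0.0404). In all of them the ALLO libraries were close to each other, and ISO replicate 2 lay more than 2-fold above ISO replicate 1.

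The effector members showed the same spread. Iigp1, also called Irga6, was at 34.9 and 127 CPM in ISO and at 496 and 389 in ALLO, 5.46-fold higher (edgeR adjusted p = 0.0383). Ifi47, also called Irgd, was at 10.2 and 32.5 CPM in ISO and at 157 and 147 in ALLO, 7.13-fold higher, the largest fold among the 7 IRG genes (edgeR adjusted p = 0.0193). Tgtp2 was at 10.9 and 27.9 CPM in ISO and at 105 and 85.7 in ALLO (4.92-fold, edgeR adjusted p = 0.0207), and Tgtp1 at 1.23 and 10.6 in ISO and at 28.4 and 35.6 in ALLO (edgeR adjusted p = 0.102). These 2 genes are near-identical: 84.8% of the 75-base windows of the longest Tgtp1 transcript occur in Tgtp2, so how reads were divided between them is uncertain. Summed with their relative Gm12185, which was done after seeing the data, they gave 13.5 and 41.4 CPM in ISO and 153 and 139 in ALLO, 5.32-fold higher (edgeR adjusted p = 0.0266).

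The GBP proteins are larger, dynamin-like GTPases that coat bacteria and vacuoles, and 7 of the 11 rose. The 5 genes of chromosome 3 lie within 144031 bases (142493978 to 142638008). Gbp2 was the most abundant, at 45.8 and 112 CPM in ISO and at 469 and 516 in ALLO, 6.26-fold higher (2.65 ± 0.47, edgeR adjusted p = 0.0141). Gbp5, a GBP linked to inflammasome activation, was at 16.6 and 55.2 CPM in ISO and at 152 in each ALLO library, 4.24-fold higher (edgeR adjusted p = 0.0444), a call lost with the filter on mean counts (0.0540). Its neighbours Gbp3 and Gbp7 had much the same levels and did not pass.

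Gbp3 was at 19.1 and 72.8 CPM in ISO and at 185 and 169 in ALLO (1.95 ± 0.63, edgeR adjusted p = 0.0681). Gbp7 was at 18.7 and 66.2 CPM in ISO and at 187 and 148 in ALLO (1.98 ± 0.60, edgeR adjusted p = 0.0588). In both the groups did not overlap, and both passed with a replicate block (edgeR adjusted p = 0.0236 and 0.0268), with limma-voom and with the Wald test of DESeq2. Gbp2b, the mouse gene once named Gbp1, had 64 and 0 counts in ISO and 1335 and 1726 in ALLO. Alone among GBP and IRG genes it was lower in ISO replicate 2, and it rose 38.9-fold (5.28 ± 1.32, edgeR adjusted p = 0.0345). The call was lost with the Wald test of DESeq2 (adjusted p = 0.114), the fold was 19.3 without ISO replicate 2, and against ISO replicate 2 alone it was at least 203-fold, on a floor of 6 counts, or 3 read pairs, per library.

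The 6 GBP genes of chromosome 5 lie within 332323 bases (105014150 to 105346472). Gbp8 was at 1.34 and 7.91 CPM in ISO and at 95.5 and 88.2 in ALLO, 19.9-fold higher (4.31 ± 0.80, edgeR adjusted p = 0.0160). Gbp11 was at 0.234 and 0.724 CPM in ISO and at 8.38 and 9.99 in ALLO, 19.0-fold higher (edgeR adjusted p = 0.00849). These 2 were low in ISO, and without ISO replicate 1 their folds were 11.5 and 12.5. Without ISO replicate 2 the fold of Gbp8 was 67.0, and Gbp11 was left with 4 ISO counts, under the floor of 6, so no fold is given.

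Gbp9 was at 20.4 and 35.7 CPM in ISO and at 166 and 133 in ALLO, 5.34-fold higher (2.42 ± 0.33, edgeR adjusted p = 0.00786). Gbp4 was at 32.2 and 115 CPM in ISO and at 278 and 253 in ALLO and did not pass (1.85 ± 0.60, edgeR adjusted p = 0.0708, and 0.0266 with a replicate block). Gbp9 had the narrowest gap between ISO libraries among the IRG and GBP genes (1.75-fold) and the smallest standard error, while Gbp4 had a 3.58-fold gap.

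Gbp6 was at 4.44 and 12.9 CPM in ISO and at 48.6 and 49.2 in ALLO, 5.64-fold higher (edgeR adjusted p = 0.0217). Gbp10 was at 1.23 and 5.55 CPM in ISO and at 17.1 and 9.03 in ALLO (1.95 ± 0.76, edgeR adjusted p = 0.111). Both are uncertain, since 29.0% of Gbp6 and 46.3% of Gbp10 exonic bases overlap the annotated gene Gm43302 on the same strand. Their sum, with Gm43302, was 5.14-fold higher (edgeR adjusted p = 0.0305). Gm43302 added no counts to it in any library, so the sum does not settle the overlap. Gvin1, a very large interferon-inducible GTPase (chromosome 7, 106156556 to 106215326), was at 3.68 and 4.71 CPM in ISO and at 31.2 and 14.6 in ALLO, 5.45-fold higher (edgeR adjusted p = 0.0164) and 3.54-fold without ALLO replicate 1. Of its transcript windows 97.5% occur in Gm4070, and the sum of Gvin1 with Gm4070, Gm8979 and 9130208D14Rik rose 4.98-fold (edgeR adjusted p = 0.0167).

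The effector enzymes did not move as a block. Nos2, inducible nitric oxide synthase (ENSMUSG00000020826.8, chromosome 11, 78920787 to 78960254), was at 10.4 and 1.45 CPM in ISO and at 75.3 and 122 in ALLO. It rose 16.6-fold (4.05 ± 0.91, edgeR adjusted p = 0.0263), 67.1-fold without ISO replicate 1 and 9.31-fold without ISO replicate 2, and lost its call without ALLO replicate 1 (0.0501) or ALLO replicate 2 (0.0707). Acod1, which makes the antimicrobial metabolite itaconate in macrophages (chromosome 14, 103046977 to 103056573), was at 26.4 and 0.241 CPM in ISO and at 117 and 73.1 in ALLO. The ISO libraries differed by more than the groups, and Acod1 was not called (2.83 ± 1.52, edgeR adjusted p = 0.216), although it passed without ISO replicate 2 (3.54-fold, edgeR adjusted p = 0.0148) and without ISO replicate 1 (9.18e-05), where the remaining ISO library had 4 counts, under the floor of 6, and no fold is given.

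Beside Nos2 and Acod1, which were both higher in ISO replicate 1, the 8 macrophage markers and the 6 neutrophil markers were also all higher in that library, with neutrophil sums of 139.9 and 13.6 CPM in ISO and 324 and 157 in ALLO. Their part in the levels of Nos2 and Acod1 was not tested. Ido1, which degrades tryptophan to kynurenine (chromosome 8, 24584136 to 24597009), was scarce everywhere, with 10 and 34 counts in ISO and 35 and 91 in ALLO. The groups overlapped, and its log2 difference of 1.17 ± 0.80 did not pass (edgeR adjusted p = 0.316).

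The largest folds belonged to the serpins and Ubd. Serpina3g, an intracellular inhibitor of cathepsins (ENSMUSG00000041481.16, chromosome 12, 104236245 to 104241939), was at 1.75 and 2.84 CPM in ISO and at 301 and 412 in ALLO, 155-fold higher (7.28 ± 0.40, edgeR adjusted p = 0.00216). Serpina3f, its neighbour, was at 0.585 and 0.121 CPM in ISO and at 52.5 and 65.7 in ALLO, 163-fold higher (edgeR adjusted p = 0.00325). With 12 counts in ISO against 2470, its count ratio was 167 (95% counting interval 76.5 to 456), and its fitted fold came to 98.6 when ISO replicate 2 was left out. With ISO replicate 1 left out 2 ISO counts remained, and no fold is given. Ubd, which encodes the ubiquitin-like protein FAT10 (chromosome 17, 37193892 to 37196095), had 4 counts in each ISO library and 401 and 452 in ALLO. Their sums, 8 and 853, stood at 86.5 to 1 after scaling (95% counting interval 33.6 to 319), the gene rose (edgeR adjusted p = 0.00216), and the call held with any 1 library left out. These intervals cover counting error only, since PCR reads without molecular identifiers are not independent.

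**Figure D3:**
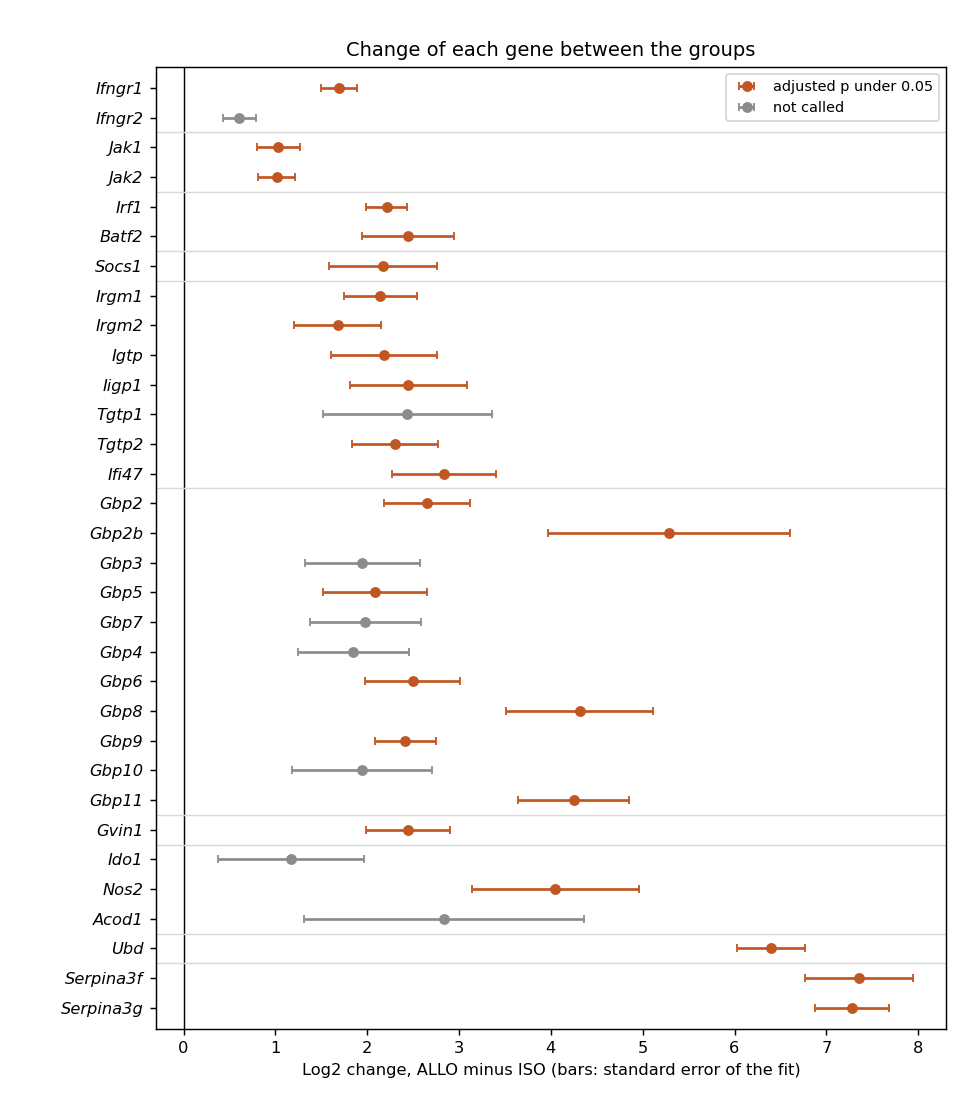
Log2 change of each gene, ALLO minus ISO, with the standard error of the edgeR fit as the bar; orange marks the 24 genes with an adjusted p under 0.05 and grey the 8 others. Ubd, Serpina3f and Serpina3g lie furthest right, and Ifngr2 and both kinases furthest left.

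Per kilobase of exon, the order of mean levels differed between groups. In ALLO the highest were Gbp2 (196 CPM per kilobase), Serpina3g (169.5), Iigp1 (142), Ifngr1 (106) and Igtp (106), and the libraries of each gene overlapped with those of the next in this order except between Iigp1 and Ifngr1. In ISO the order began with Ifngr1 (32.8 CPM per kilobase), Gbp2 (31.3), Iigp1 (26.0) and Igtp (23.3), neighbours whose ISO libraries overlapped. Serpina3g was 25th of the 32 genes in ISO and second in ALLO. Together the 32 genes took 0.0730% and 0.129% of all counts in ISO and 0.494% and 0.511% in ALLO.

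Between the ISO libraries, most IRG and GBP genes differed in a direction opposite to T cell, macrophage, neutrophil, B cell and dendritic cell markers. Among the scarce NK cell markers, 5 of 6 were higher in ISO replicate 2, but only Klrb1c and Prf1 by at least 2-fold. Ncr1, counted among the 5, had 4 counts in each ISO library, and Eomes was at least 2-fold lower in ISO replicate 2. Of the 18 IRG and GBP genes 17 were higher in ISO replicate 2, as were 44.3% of all genes tested, and 16 were at least 2-fold higher there, which holds for 6.01% of all genes tested. A 2-fold difference the other way was found for 4 of the 32 genes, Gbp2b, Nos2, Acod1 and Serpina3f, and for 13.0% of all genes. The 18 IRG and GBP genes summed to 309 CPM in ISO replicate 1 and 914 in ISO replicate 2, against 3115 and 2869 in ALLO. Receptors and kinases hardly differed between the ISO libraries, at ratios of 0.926 to 1.15, replicate 2 over replicate 1. By contrast, all 8 T cell, 8 macrophage, 6 neutrophil, 5 B cell and 6 dendritic cell markers were lower in ISO replicate 2, with a median log2 difference of -2.85 for the T cell markers. Each side of this contrast is 1 library, which is a difference between libraries and has no test.

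NK cell markers were scarce in both ISO libraries, with sums of 2.34 and 5.13 CPM and a median log2 difference of 0.38. In ISO replicates 1 and 2, Prf1, the perforin gene, had 9 and 35 counts, Klrb1c 0 and 14, Klrk1 9 and 14, Nkg7 16 and 18, Ncr1 4 and 4, and Eomes 2 and 0. Smooth muscle and endothelial sums differed little between the ISO libraries (28260 and 28340, and 1163 and 1175 CPM). Single markers could differ more, and Kdr, an endothelial one, was at 75.5 and 28.85 CPM. Fibroblast markers were lower in ISO replicate 2 for 5 genes and higher for 1, with a median log2 difference of -0.58. Of the 28 other genes of interferon and cytokine signalling, 15 were higher in ISO replicate 2 and 11 lower. At least 2-fold higher there were Irf9 (31.5 and 77.9 CPM) and Usp18 (4.44 and 10.3), and at least 2-fold lower were Il18r1, Tbx21, Eomes and Ptpn6. Of the 17 other GTPase genes, 5 were at least 2-fold higher in ISO replicate 2 (Gm12250, Gm4951, Gm5431, Gm4070 and Mx2) and 2 at least 2-fold lower (Irgc1 and Gm1966), and Mx1 was at 3.51 and 2.29 CPM. Ifng itself had 0 counts in both ISO libraries. The part of cell types in the difference was not tested. Sex of the tissue also separates these libraries, and cannot be told apart from the other differences between them.

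**Figure D4:**
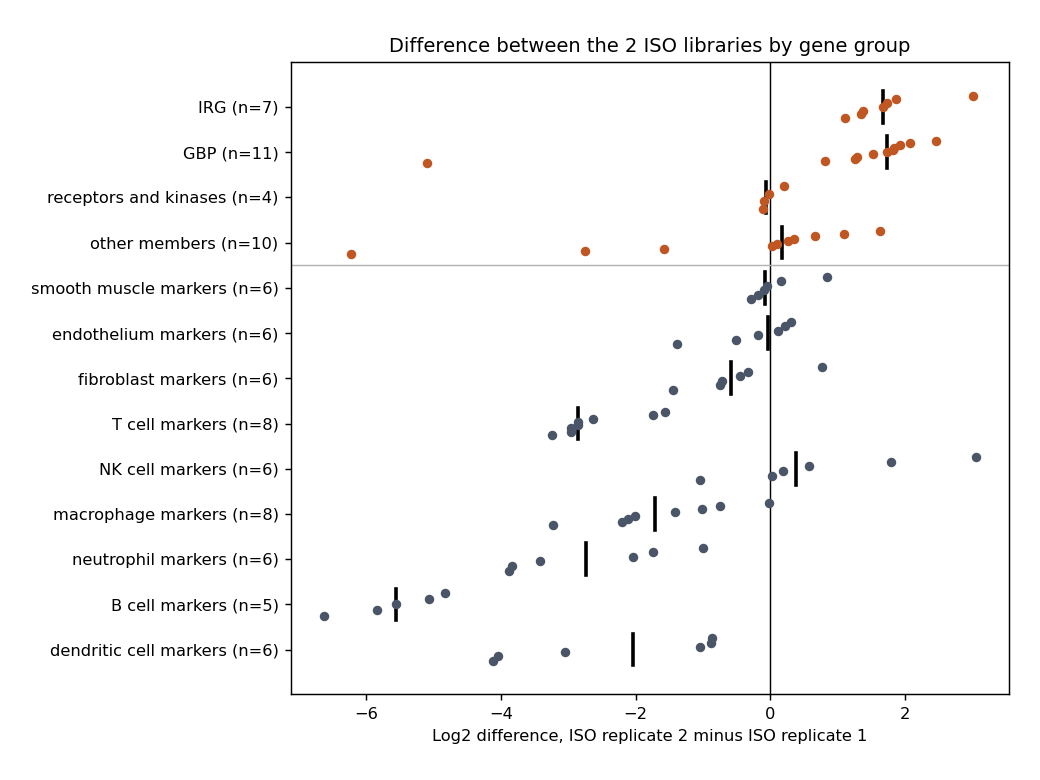
Log2 difference between the ISO libraries (replicate 2 minus replicate 1, with a prior count of 2) for genes of the set in orange and cell type markers in grey; each point is a gene and each bar the median of its row. IRG and GBP genes lie right of 0 except Gbp2b, while T cell, macrophage, neutrophil, B cell and dendritic cell markers lie left of 0.

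The size of the GTPase changes differed with the ISO library used. For the 17 IRG and GBP genes other than Gbp2b, the median fold was 4.92 with all libraries, 9.66 without ISO replicate 2 (17 called) and 3.20 without ISO replicate 1 (12 called). Without an ALLO library 5 or 6 of the 17 were called, at median folds of 4.51 and 5.04. Among all 32 genes 14 passed without ALLO replicate 2 and 16 without ALLO replicate 1. Calls that held with any 1 library left out were those of Ifngr1, Irf1, Irgm1, Gbp2, Gbp8, Gbp9, Gbp11, Gvin1, Ubd, Serpina3f and Serpina3g.

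For single genes, the fold without ISO replicate 2 was 6.84 for Irgm1, 5.64 for Irgm2, 9.66 for Igtp, 12.5 for Iigp1, 8.63 for Tgtp2 and 14.7 for Ifi47. It was 10.6 for Gbp2, 9.05 for Gbp5 and 10.8 for Gbp6. Without ISO replicate 1 the folds of Igtp, Iigp1, Ifi47, Gbp5 and Gbp6 were 2.92, 3.45, 4.64, 2.73 and 3.75. All stayed above 1 in either case, and the call of Irgm2 was lost without ISO replicate 1 (2.20-fold, edgeR adjusted p = 0.0943).

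Without ALLO replicate 1 the calls of Irgm2, Igtp, Iigp1, Tgtp2, Ifi47, Gbp2b, Gbp5 and Gbp6 were lost, at edgeR adjusted p-values from 0.0579 (Ifi47) to 0.134 (Irgm2). Without ALLO replicate 2 the same genes other than Tgtp2 lost theirs, from 0.0512 (Ifi47) to 0.106 (Gbp5). Their directions did not change in any of these fits.

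**Figure D5:**
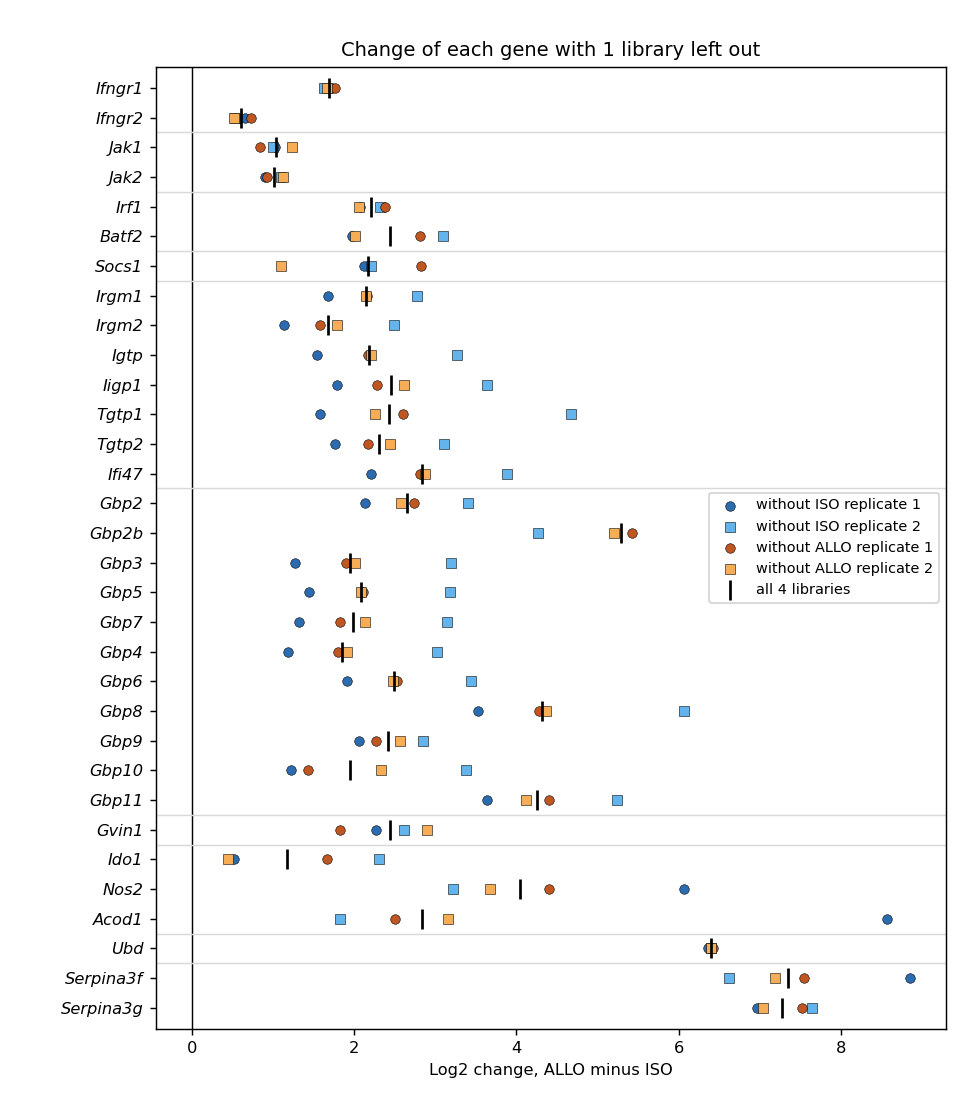
Log2 change of each gene with 1 library left out at a time, beside the value with all 4 libraries (black tick); Gbp2b without ISO replicate 1 is not drawn, since its remaining ISO library had 0 counts, and the values of Acod1 and Serpina3f without ISO replicate 1, Gbp11 without ISO replicate 2 and Ubd without either ISO library rest on 2 to 4 ISO counts. In IRG and GBP rows the values without ISO replicate 2 lie furthest right, except for Gbp2b, and all values lie right of 0.

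Genes beside the clusters were compared next. Within 100 kb of the chromosome 3 GBP cluster 2 other genes were tested: Pdlim5 fell, from 10322 and 11471 counts in ISO to 2900 and 3854 in ALLO (edgeR adjusted p = 0.00551), and Kyat3 did not pass (0.28 ± 0.35, edgeR adjusted p = 0.582). Both other genes tested beside the chromosome 5 cluster, Abcg3 and Lrrc8b, rose. Around the first IRG cluster of chromosome 11 (48861968 to 49096974), 6 of 12 other genes rose, beside 18.4% of all genes tested. Among them were Gm12185 and Olfr56, whose exons overlap those of Tgtp1 and Ifi47. Gm5431, 9930111J21Rik1 and 9930111J21Rik2, which also rose, are counted again below among the other GTPase genes, and the remaining one was Psme2b. The ribosomal scaffold gene Rack1 and the ubiquitin ligase gene Trim41 did not pass. Around Irgm2 and Igtp 1 of 6 rose, Gm12250, itself an IRG gene also called Irgb10, and Zfp672 fell. All 5 other genes tested around the serpins were Serpina3 relatives, and all rose, but Serpina3b, Serpina3h, Serpina3i and Serpina3m reached the low-count filter only through ALLO. Neighbours are named after their values were seen.

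In a list of 28 other genes of interferon and cytokine signalling, 19 rose and 2 fell (18.4% and 14.8% of all genes). Their median log2 change was 1.68. The list was drawn around interferon-gamma but also holds genes of type I interferon, such as Ifnar1, Ifnar2 and Irf9. Of the 19, 6 reached the low-count filter only through ALLO (Ifng, Il12rb1, Il12rb2, Il18r1, Tbx21 and Eomes), and of the other 22 genes 13 rose. Ifng had 63 and 57 counts in ALLO and was at least 8.17-fold higher (edgeR adjusted p = 0.0108). Il12rb1, a receptor chain for the interleukin that drives interferon-gamma production, rose from 4 summed ISO counts to 1419 ALLO counts, or 288-fold (95% counting interval 79.4 to 2382). Irf8, a macrophage and dendritic cell factor, rose 30.3-fold, Stat2 3.20-fold, Jak3 5.21-fold, Tyk2 2.45-fold and the type I interferon receptor gene Ifnar2 3.25-fold.

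Among other SOCS and phosphatase genes of the list, Socs3 rose 2.73-fold, Cish 3.89-fold, Ptpn1 2.57-fold and Ptpn6 21.6-fold (edgeR adjusted p = 0.0152, 0.0144, 0.0191 and 0.0067), while Ptpn11, the SHP2 phosphatase gene, and Socs2 fell 2.29- and 2.14-fold (edgeR adjusted p = 0.0141 and 0.0240). Cish, Ptpn1 and Ptpn6 are named after their values were seen. The calls of Socs3, Tyk2, Ptpn11 and Socs2 were lost without ISO replicate 2 (edgeR adjusted p = 0.0524, 0.0543, 0.0957 and 0.111), and that of Socs2 also without ALLO replicate 1 (0.0825). Ptpn2, a phosphatase that acts on JAK kinases, was at 31.2 and 34.8 CPM in ISO and at 40.8 and 26.0 in ALLO, a log2 difference of 0.02 ± 0.27 (edgeR adjusted p = 0.970). Irf9, a factor of the type I interferon response, had a log2 difference of 0.76 ± 0.44 (edgeR adjusted p = 0.243) and passed without ISO replicate 2 (1.53).

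Of 17 other GTPase genes with a row, 10 rose and 2 fell, beside 18.4% and 14.8% of all genes. Gm1966, a relative of Gvin1, rose 50.2-fold, Mx1 14.6-fold, Gm4841 9.74-fold and 9930111J21Rik1 5.43-fold. The atlastin genes Atl2 and Atl3, which encode dynamin-like GTPases that shape the endoplasmic reticulum, fell 2.15- and 2.02-fold, calls lost without ISO replicate 2 (edgeR adjusted p = 0.0699 and 0.133). Atl2 also missed in the fit that left out ALLO replicate 2 (0.0509), and Atl3 in the one that left out ISO replicate 1 (0.0928). In the tryptophan and arginine list 6 of 12 genes tested rose, 1 of them (Kynu) passing the filter only through ALLO, and none fell in edgeR's test; only Nos3 was lower at an unadjusted p under 0.05. Ass1, which regenerates arginine, rose 9.61-fold, the arginine transporter gene Slc7a2 3.24-fold and Gch1, which starts synthesis of the nitric oxide synthase cofactor, 3.26-fold. The calls of Slc7a2 and Gch1 were lost without ISO replicate 2 (edgeR adjusted p = 0.0574 and 0.0795), and Gch1 also missed when ALLO replicate 2 was left out (0.0849). Kynu, the kynureninase gene, went from 1 summed ISO count to 320 ALLO counts, a scaled ratio of 260 with a 95% counting interval of 27.4 to 265700.

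Of 11 Serpina3 and Batf relatives 8 were tested and rose. A rise was built into the filter for 4 of them, Serpina3b, Serpina3h, Serpina3i and Serpina3m, which passed it only through ALLO, and the other 4 were Serpina3c, Serpina3n, Batf and Batf3. The values include Serpina3c (11.6-fold), Serpina3m (12.3-fold), Batf3 (14.4-fold) and Serpina3i, whose summed counts were 2 and 246 (scaled ratio 99.8, 95% counting interval 17.6 to 3974). Of 12 autophagy and ubiquitin-like genes, a group that includes the conjugation system needed to place GTPases on vacuoles, 1 rose and 2 fell. Among all genes 18.4% rose and 14.8% fell, and the median log2 change of these 12 was -0.26. Atg5 rose 1.65-fold, but in none of the fits on 3 libraries (edgeR adjusted p = 0.0629 to 0.258), nor with no filter (0.0733) or a replicate block (0.0922). Gabarapl1 and Map1lc3a fell 2.07- and 4.86-fold, the former not without ISO replicate 1 or ISO replicate 2 (edgeR adjusted p = 0.0599 and 0.0629).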

How the data were processed

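Total RNA of aortic graft tissue was depleted of ribosomal RNA and sequenced, per the labels' protocols. For 2 ISO and 2 ALLO libraries the authors deposited unnormalized counts of reads by gene. Subread 1.6.4, featureCounts, DESeq2 1.30.0, R 4.0.3 and build mm10 are named in the submitters' processing notes. No source used here gives the aligner, annotation release, strand setting or treatment of multi-mapping reads, so near-identical and overlapping genes are reported as uncertain. The other deposited measure is the exonic length of each gene in bases.

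Names from the reference table matched 54723 of 54752 gene IDs, transcript copies were searched in the GENCODE M21 transcripts, and coordinates and exon overlaps came from the deposited table. The members and lists were chosen with earlier results of these data known. All 32 members are reported; from each list, fixed genes are named together with at most 4 of the lowest adjusted p among calls in the commoner direction and 2 in the other. One gene that this rule names is not reported here.

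Genes were filtered with filterByExpr (minimum count 10), scaled by TMM (factors 0.926 to 1.09) and tested with edgeR 4.0.16 (glmQLFit, glmQLFTest, group only), at a Benjamini-Hochberg adjusted p under 0.05. Alternatives used other scalings and filters, DESeq2 1.42.0, limma 3.58.1 (voom), halved counts, removed gene classes, a replicate block and each library left out. Removal of X and Y genes and summed families were added after seeing the data. Low counts were mostly even (68.0% to 74.6% of counts from 1 to 20), so a floor of 6 counts, or 3 pairs, per library was used, and counting intervals rest on count pairs (counts over 2). Replicates differed beyond sampling noise (chi-square per degree of freedom 43.5 in ISO and 138 in ALLO). Python 3.11.15 and R 4.3.3 were used. Protein sequences were not used here.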

Additional observations from a re-analysis of the deposited data

How the results depend on the processing

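With 2 libraries per group, precision is limited by the spread between libraries more than by depth, and genes such as Ido1, Gbp11 and Ubd also had few counts in ISO. The number of the 32 genes that rose was 21 to 29 under the other settings with all 4 libraries, and none fell under any setting; where 1 library was left out, 14 to 27 rose, the fewest without ALLO replicate 2. The number of all genes called was 5469, and 3603 to 4651 with 1 library left out, the fewest without ISO replicate 2. The median log2 change of the set was 2.32 to 2.54 with all 4 libraries and 1.85 to 3.16 with 1 left out, the highest without ISO replicate 2. Fits that leave out a library assume that the lone library of its group varies like the others.

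Scaling by library size alone moved the median of all genes from 0.03 to 0.22 on the log2 scale and gave 3546 higher and 1867 lower genes, against 3032 and 2437, and 26 genes of the set then rose. Over all single-gene values of the set, 414 kept their call, 34 gained and 32 lost it, and 0 changed sign. Of the named genes outside the set, Ptpn2 changed sign, at -0.0162 with upper-quartile scaling, -0.0062 with no filter, -0.0233 with limma-voom, -0.0153 with a replicate block and -0.31 to 0.31 with 1 library left out (-0.07 without ISO replicate 1 and -0.31 without ALLO replicate 1). It was not called in any of them, and the cause was not tested.

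The replicate numbers come from the sample titles, and the sources used here state no pairing of same-numbered libraries. Deviations of same-numbered libraries correlated at 0.0963, a value that cannot settle whether they were paired. With a replicate block 28 of the 32 genes rose and 4873 of all genes were called, with Tgtp1, Gbp3, Gbp4 and Gbp7 gained and none of the 24 lost.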
